A study of Mus musculus with 8 samples.

Results

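The genes described here are 10 mouse genes of the response to oxidants and metals. They are the metallothioneins Mt1, Mt2 and Mt4, heme oxygenase Hmox1, the quinone reductase Nqo1, the glutamate-cysteine ligase subunits Gclc and Gclm, thioredoxin reductase Txnrd1, sulfiredoxin Srxn1, and Nfe2l2, which encodes the transcription factor NRF2. They were chosen by name, with earlier results of these data known. All 10 were found, each at 1 locus, in tables of 26457 loci for unperturbed samples, 47990 for hair plucking and 46726 for wounds.

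Metallothioneins are small cysteine-rich proteins that bind zinc and copper, and Mt1 and Mt2 are switched on by metals through the factor MTF1 and by glucocorticoids. NRF2 is held by KEAP1 and degraded in resting cells, and oxidants or electrophiles release it to act on antioxidant response elements in genes such as Nqo1, Gclc, Gclm, Txnrd1, Srxn1 and Hmox1. Skin is exposed to light, air and inflammatory oxidants, and its keratinocytes use both systems.

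The study compared mice lacking JunB, an AP-1 transcription factor, in the epidermis (JunB cKO) with wild type mice (WT), all C57BL/6. A floxed Junb gene was deleted by Cre under the keratin 14 promoter, so cells outside that lineage keep Junb. The labels write the genotypes as JunB -/- and JunB +/+. The conditions were unperturbed (mice 60 days old), 4 days after hair depilation (mice plucked on postnatal day 54 and harvested on day 58) and 30 days after wounding. The age of the wounded mice is not given in the sources used here. The RNA of 3 samples went into each group's pool ahead of the library step, and each table holds 1 value per genotype, in fragments per kilobase of transcript, scaled to library size (FPKM). The wound values combine the 2 libraries of a genotype. No test was therefore possible, and each difference has no replicate check. All ratios are JunB cKO over WT on the scale log2((FPKM + 1)/(FPKM + 1)), and at least 2-fold means 1 or more on that scale in either direction.

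The labels give keratinocytes, isolated with trypsin, as the tissue of the unperturbed and plucked samples, although they also call the plucked ones biopsies, and skin as that of the wounds. Keratin 5 stood at 2592 FPKM in WT and 2690 in JunB cKO of the unperturbed table. There the 6 fibroblast markers summed to only 13.7 and 12.5 FPKM. In the plucked table they summed to 5109 in WT and 1856 in JunB cKO, and in wounds to 10532 and 13412, so those tables also hold dermal RNA. Junb itself was lower in the JunB cKO in every table, at 268 FPKM against 31.4 unperturbed, 40.8 against 11.7 after plucking, and 33.4 against 15.4 in wounds. In such mixtures, fewer cells of a type and less RNA per cell cannot be told apart. Depth, read from the FPKM worth of 1 read in short receptor genes, was about 16.9 M reads in the unperturbed WT and 4.99 M in the JunB cKO. It was 16.3 and 12.9 M after plucking and 43.4 and 40.3 M in wounds. In the plucked WT only 1 locus stood at 1 read, and 6 of 6 loci checked fell on whole reads. In the plucked JunB cKO 3 loci stood at 1 read, with 17 of 18 checked whole. In the JunB cKO wounds 4 stood at 1 read, with 21 of 31 checked whole. Depths in these columns therefore rest on few loci. The unperturbed JunB cKO showed values above 0 at 86.1% of 1335 sensory receptor loci, with a median of 0.548 FPKM, against 4.42% in WT. The lowest member value in that library, 5.79 FPKM for Nqo1, lies well above this level.

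Sequences upstream of 3 members are shown: Mt2 and Srxn1, the members at least 2-fold higher in the plucked JunB cKO, and Mt1, the neighbour of Mt2. They are the 250 bases before the RefSeq start on GRCm38.p6, 5′ to 3′. Capitals mark matches on either strand to the metal response element core (TGCACNC or TGCGCNC), the antioxidant response element core (TGACNNNGC) and the AP-1 site (TGANTCA).

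Mt1, chr8:94178839-94179088, plus strand: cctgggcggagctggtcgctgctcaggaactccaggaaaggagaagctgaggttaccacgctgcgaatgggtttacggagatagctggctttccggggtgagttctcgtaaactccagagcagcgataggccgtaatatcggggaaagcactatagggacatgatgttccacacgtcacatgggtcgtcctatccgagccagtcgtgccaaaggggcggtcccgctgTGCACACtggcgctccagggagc

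Mt2, chr8:94172368-94172617, plus strand: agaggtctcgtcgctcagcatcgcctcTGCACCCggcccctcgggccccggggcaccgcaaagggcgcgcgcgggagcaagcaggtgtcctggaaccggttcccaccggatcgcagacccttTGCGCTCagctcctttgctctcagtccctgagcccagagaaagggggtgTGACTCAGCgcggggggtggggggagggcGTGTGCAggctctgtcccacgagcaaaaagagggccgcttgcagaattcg

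Srxn1, chr2:152105274-152105523, plus strand: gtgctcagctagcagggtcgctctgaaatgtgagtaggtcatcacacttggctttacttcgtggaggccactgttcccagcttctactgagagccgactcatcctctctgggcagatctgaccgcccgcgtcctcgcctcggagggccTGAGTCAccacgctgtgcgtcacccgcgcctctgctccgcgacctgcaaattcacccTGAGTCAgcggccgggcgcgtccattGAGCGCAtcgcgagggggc

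Matches on the minus strand appear as their complement read on the gene's strand. The windows searched ran 50 bases past the start and were available for 8 of the 10 members, with 3 windows for Txnrd1. Hmox1 and Gclc had none. Sequence outside the windows was not searched, so a gene without a match may hold an element there. The metal element was found in Mt1, Mt2, Mt4, Gclm and Srxn1, and in 25.7% of all 32851 windows. The antioxidant element was found in Gclm, Mt2, Nfe2l2, Srxn1 and Txnrd1, and in 12.4% of windows. The AP-1 site was found in Mt2, starting 79 bases before the start, and in Srxn1, starting 102 and 45 bases before it, and in 7.81% of windows. The Mt2 match lies within the antioxidant match at the same position. The antioxidant match of Srxn1 begins 28 bases after the start base and so lies outside the sequence shown. So do metal matches of Mt1, beginning 2 and 20 bases after the start base, and of Mt2, beginning 4 bases after it. In the searched windows Mt1 held 3 metal matches and Mt2 held 4. A match describes letters and is not evidence that a factor bound there. Mt2 and Srxn1 were picked for display by their plucked ratios, and whether matches go with ratios was not tested.

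The metallothionein genes lie together on chromosome 8. From the Mt4 start (94137197) to the Mt1 end (94180327) the cluster spans 43.1 kb on GRCm38, and Mt2 ends 5.51 kb before Mt1 starts. Hmox1 and Nqo1 are on the same chromosome, which is also that of Junb: 5 of 10 members are. Outside this chromosome, Gclc lies at chr9:77754535-77794485, Gclm at chr3:122245557-122270732, Txnrd1 at chr10:82833951-82897712, Srxn1 at chr2:152105516-152111376 and Nfe2l2 at chr2:75675513-75704641. Hmox1 lies at chr8:75093621-75100589 and Nqo1 at chr8:107388225-107403206. Hmox1 lies 9.87 Mb, the Mt cluster about 9.16 Mb (Mt4) and Nqo1 22.4 Mb from Junb.

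**Figure D1:**
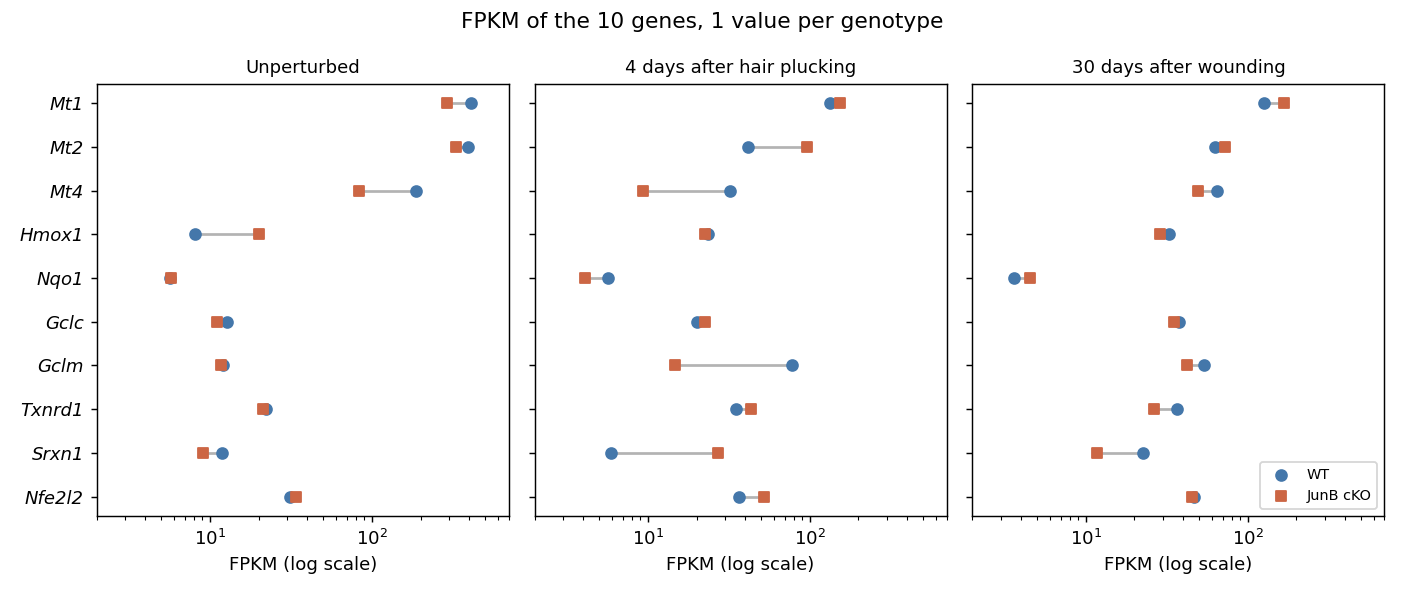
FPKM of the 10 genes (log axis) in the 3 conditions, with circles for WT and squares for JunB cKO, 1 value each. The metallothioneins stand highest in the unperturbed samples, and the widest gaps between genotypes are those of Gclm and Srxn1 after plucking.

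In unperturbed samples the metallothioneins were the most abundant members. Mt1 stood at 407 FPKM in WT and 293 in JunB cKO, and Mt2 at 393 and 333. Mt4, the metallothionein of stratified epithelia, stood at 186 and 83.2. Together the 3 made up 90.5% of the summed FPKM of the 10 genes in WT and 86.2% in JunB cKO. By FPKM Mt1 ranked 138 of all loci in WT and 165 in JunB cKO, and Mt2 143 and 149. All 3 were lower in the JunB cKO, Mt4 by the most, with ratios of -1.15 for Mt4, -0.47 for Mt1 and -0.24 for Mt2.

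Hmox1, the enzyme that breaks down heme, went the other way. It stood at 8.09 FPKM in WT and 20.1 in JunB cKO, a ratio of 1.22. About 187 and 137 reads lie behind these values, and the 95% counting interval of the plain log2 ratio was 0.98 to 1.64. Such intervals are exact Clopper-Pearson and cover counting error only, not differences between animals. For Mt4 the reads were about 622 and 82 and the interval -1.51 to -0.83, so the 2-fold limit lay inside both intervals.

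The other members were close in both genotypes. Nqo1 stood at 5.65 and 5.79 FPKM, Gclc at 12.7 and 11.0, and Gclm at 12.1 and 11.7. Txnrd1 stood at 22.2 and 21.3 and Nfe2l2 at 31.0 and 34.0. The counting intervals of these 5 genes held 0. Srxn1, which restores over-oxidised peroxiredoxins, stood at 12.0 and 9.09 FPKM, with an interval of -0.70 to -0.11.

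In all, Hmox1 was the 1 of 10 members at least 2-fold higher, and Mt4 the 1 lower by as much. Among all 13300 loci with a mean FPKM of at least 1, the shares past this limit were 5.56% upward and 1.53% downward. The median ratio was -0.12 over the members and -0.12 over those loci. Loci with a mean FPKM of at least 10 were shifted by -0.22. Measured from that shift, Mt4 stood at -0.93, Mt1 at -0.25, Mt2 at -0.01 and Hmox1 at 1.44, and 6 members lay above it and 4 below instead of 3 and 7.

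Marker genes were read beside these values. The macrophage and monocyte markers, of which 5 of 6 were listed, summed to 6.71 FPKM in WT and 12.1 in JunB cKO, with Cd163 at 0.112 and 1.05. Of the 3 with a mean FPKM of at least 1, 0 were at least 2-fold apart. Sums of other lists near the receptor gene level were also higher in that library, at 0.188 and 2.15 FPKM for endothelial, 0.351 and 2.93 for adipocyte and 0.725 and 2.36 for skeletal muscle markers. The neutrophil markers summed to 5.15 and 23.2, and both with a mean FPKM of at least 1, S100a8 and S100a9, were at least 2-fold higher. Ly6g stood at 0 and 0.981 and Cxcr2 at 0.104 and 1.62, beside a receptor gene median of 0.548 FPKM in that JunB cKO library. Of the 6 differentiated keratinocyte markers 3 were at least 2-fold higher in the JunB cKO, and Mt4 per Krt10 was 0.0561 in WT and 0.0170 in JunB cKO. The part of these lists in the Hmox1 and Mt4 values was not tested.

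After hair plucking the members spread further apart. Srxn1 stood at 5.94 FPKM in WT and 27.1 in JunB cKO, a ratio of 2.02, on about 253 and 912 reads with an interval of 1.99 to 2.40. Mt2 stood at 41.4 and 96.0 FPKM, a ratio of 1.19, with an interval of 0.97 to 1.46. Mt1, its neighbour, stood at 133 and 154 FPKM, a ratio of 0.22. The Mt2 to Mt1 ratio within a library, which no scaling of the library alters, was 0.313 in WT and 0.622 in JunB cKO. It was 0.965 and 1.14 in unperturbed samples and 0.500 and 0.431 in wounds.

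Mt4 was again lower, at 32.2 FPKM in WT and 9.39 in JunB cKO. The ratio was -1.68 on about 104 and 24 reads, with an interval of -2.48 to -1.12. Gclm, the regulatory subunit of the enzyme that starts glutathione synthesis, stood at 77.6 and 14.8 FPKM, a ratio of -2.32. Its catalytic partner Gclc stood at 20.2 and 22.4, so Gclc per Gclm was 0.260 in WT and 1.52 in JunB cKO. The same ratio was 1.05 and 0.941 in unperturbed samples and 0.694 and 0.826 in wounds, so the plucked WT had the lowest value. The plucked and wound tables place Gclm in a joined locus of 285 kb with 7 other listed genes (chr3:122245557-122530191), against 48.0 kb with 2 in the unperturbed table. In the plucked table the neighbour Dnttip2 stood at 56.0 and 76.5 FPKM, and Gm17494, in the same locus, at 1.38 and 0.0351. How reads were divided within the locus was not tested.

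**Figure D2:**
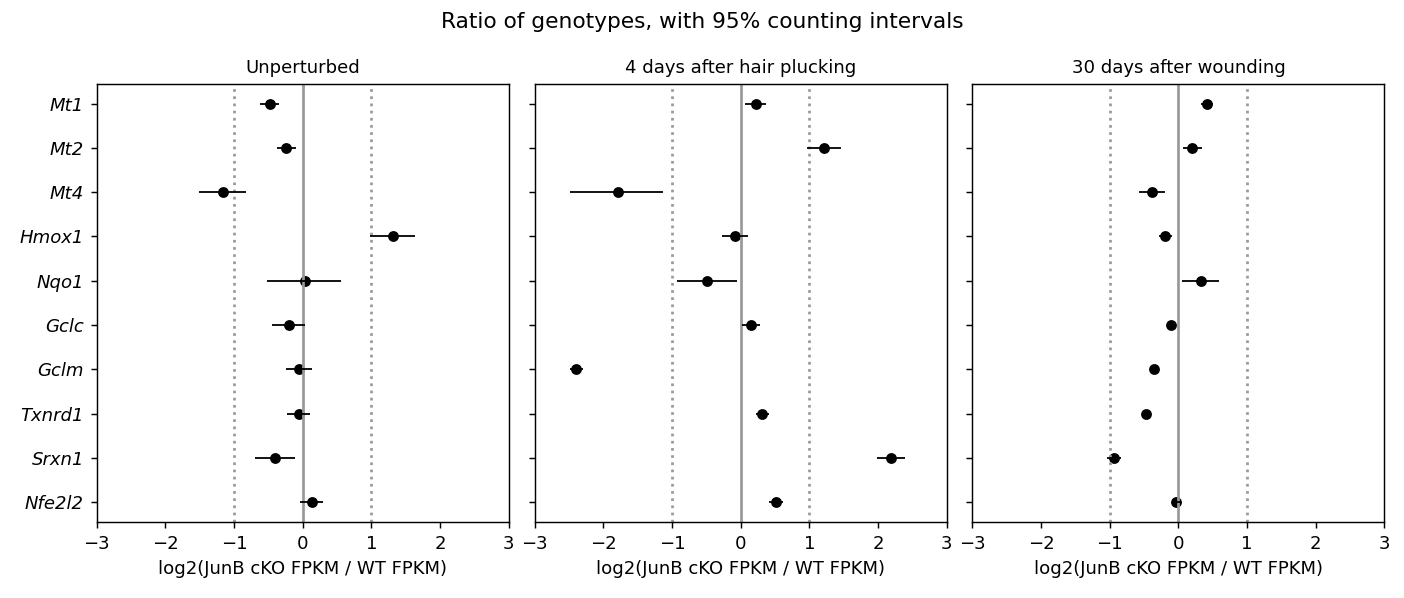
Plain log2 ratio of JunB cKO over WT FPKM for each gene in each condition, with horizontal lines for 95% counting intervals and dotted lines at 2-fold. After plucking Srxn1 and Mt2 lie to the right and Gclm and Mt4 to the left, while in wounds no gene passes either dotted line.

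The remaining members differed less. Txnrd1 stood at 34.8 FPKM in WT and 43.4 in JunB cKO, and Nfe2l2 at 36.5 and 52.2. Hmox1 stood at 23.6 and 22.4 and was the only member whose counting interval held 0 after plucking. Nqo1 stood at 5.71 and 4.08 FPKM.

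In all, 2 of 10 members (Srxn1 and Mt2) passed the 2-fold limit upward and 2 (Gclm and Mt4) downward. Among all 15737 loci with a mean FPKM of at least 1, the shares past it were 16.5% upward and 14.7% downward, so 2-fold differences were common throughout this table. The median ratio was 0.18 over the members and 0.02 over all loci.

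Sums of several marker lists also differed here. All 6 macrophage and monocyte markers were at least 2-fold lower in the JunB cKO, with sums of 240 and 77.2 FPKM. The skeletal muscle markers summed to 78.5 and 13.7, and the neutrophil markers to 4.11 and 405. That last difference rests on S100a8, listed at 0 in WT and at 152 in JunB cKO, and S100a9, at 2.56 and 250.4. Cxcr2 stood at 1.55 and 2.42 and Ly6g was listed at 0 in both. Whether neutrophils differed was not tested. Of the differentiated keratinocyte markers 1 of 6 was at least 2-fold higher, and Mt4 per Krt10 was 0.0161 and 0.00255. The part of these in the member values was not tested.

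In wounds the 10 genes were nearer in the genotypes. No member was at least 2-fold higher or lower, a count of 0 in each direction. Among all 16762 loci with a mean FPKM of at least 1, 4.99% lay past the limit upward and 4.38% downward. The median ratio was -0.14 over the members and 0.01 over all loci.

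Srxn1 came nearest the limit. It stood at 22.6 FPKM in WT and 11.8 in JunB cKO, a ratio of -0.89 with an interval of -1.04 to -0.84. Txnrd1 stood at 36.5 and 26.3, a ratio of -0.46, and Gclm at 54.1 and 42.3, a ratio of -0.35. Gclc at 37.6 and 34.9, Hmox1 at 32.6 and 28.6 and Nfe2l2 at 46.4 and 45.3 were closer still.

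Among the metallothioneins Mt1 stood at 126 FPKM in WT and 168 in JunB cKO, a ratio of 0.41. Mt2 stood at 63.0 and 72.3, a ratio of 0.20. Mt4 was lower in the JunB cKO, as in the other tables, at 64.3 and 49.2 FPKM, a ratio of -0.38 with an interval of -0.58 to -0.20. Nqo1 stood at 3.61 and 4.53. The red cell markers summed to 140 and 222 FPKM in these samples. The neutrophil markers summed to 48.4 and 218, with 2 of the 3 above a mean FPKM of 1 at least 2-fold higher. These were S100a8 at 36.7 and 139 and S100a9 at 10.9 and 77.5, and the difference in the sum rests on them. Cxcr2 stood at 0.794 and 1.57, and Ly6g was listed at 0 in both. The sebocyte markers differed in the wounds, with 3 of 5 at least 2-fold higher in the JunB cKO and sums of 606 and 1250 FPKM. The part of these lists in the member values was not tested.

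**Figure D3:**
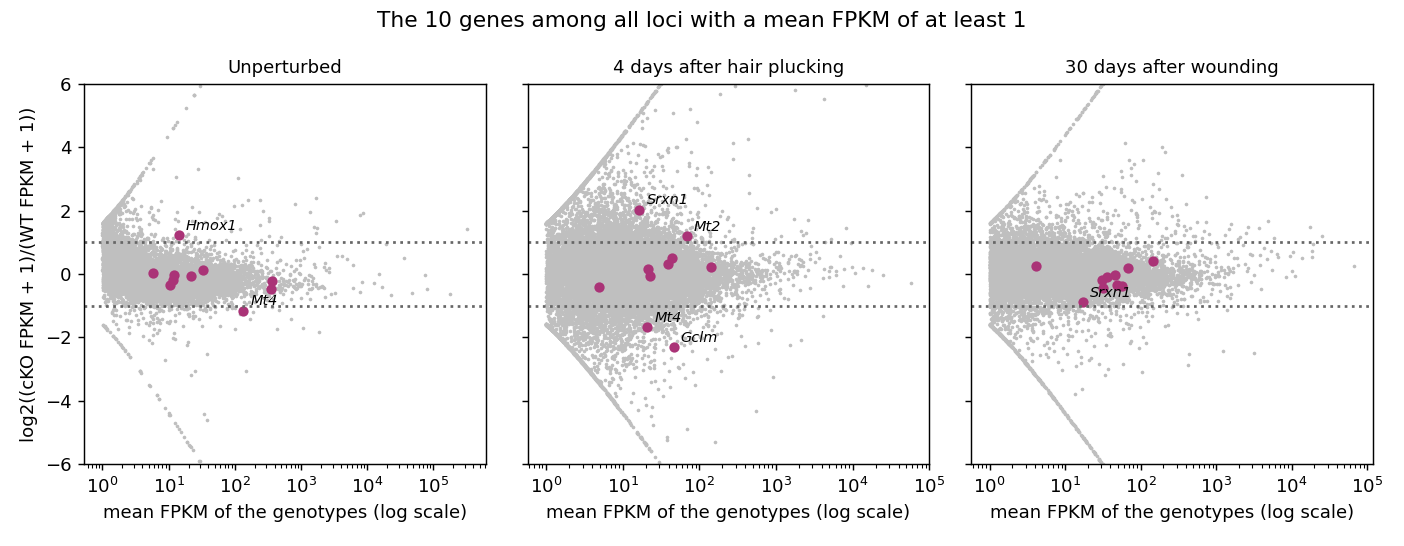
Ratio against the mean FPKM (log axis) for all loci with a mean FPKM of at least 1 (grey) and the 10 genes (purple), with dotted lines at 2-fold and points beyond the vertical range not drawn. The grey cloud is widest after plucking, and 1 member lies above and 1 below the dotted lines in the unperturbed panel, 2 and 2 after plucking, and none in wounds.

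The tables were normalised separately and list different loci, so the order of levels across them rests on that normalisation and was not tested. They also differ in material. The fibroblast markers summed to 13.7 and 12.5 FPKM unperturbed, against 5109 and 1856 after plucking and 10532 and 13412 in wounds. Effects of a condition and of the cells sampled cannot be told apart in these levels. Mt1, Mt2 and Mt4 were highest in the unperturbed WT. Mt4 ranged from 9.39 to 186 FPKM over the 6 columns, a 19.8-fold range, and Mt2 from 41.4 to 393, a 9.48-fold range. Hmox1 was lowest in the unperturbed WT at 8.09 and highest in the WT wounds at 32.6. Nqo1 and Nfe2l2 ranged least, 1.60-fold and 1.68-fold.

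Keap1, Mtf1, Slc30a1 and Mt3 were within 2-fold between genotypes in all 3 tables on the scale used here. Keap1, the NRF2 inhibitor, stood at 17.3 and 16.8 FPKM unperturbed, 14.1 and 11.0 after plucking, and 10.5 and 15.0 in wounds. Mtf1, the metal-responsive factor, stood at 4.68 and 4.82, then 4.34 and 3.76, then 8.74 and 5.93. Slc30a1, a zinc exporter that MTF1 acts on, stood at 7.59 and 11.0, then 19.1 and 21.2, then 35.1 and 25.6. Mt3, the brain metallothionein, was listed at 0 and 0.595 unperturbed, at 0 in both after plucking, and at 0.566 and 1.63 in wounds. Its wound ratio was 0.75, and the 1 FPKM added on that scale weighs heavily at values this low.

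A wider set of 105 genes in 11 lists gives the surroundings. In unperturbed samples 93 had a mean FPKM of at least 1, of which 1 was at least 2-fold higher and 1 lower. That is 1.08% in each direction, against 5.56% upward and 1.53% downward of all loci above that floor. Sod3, the extracellular superoxide dismutase, stood at 4.78 and 11.7 FPKM. Mgst1, a microsomal glutathione transferase, stood at 105 and 48.4, and it is also among the sebocyte markers, of which 4 of 5 were at least 2-fold lower. The most abundant gene of the lists was Fos, an AP-1 subunit induced early by stress, at 892 and 514 FPKM. All 6 glucocorticoid response genes stayed within 2-fold, with a median ratio of -0.53, where loci with a mean FPKM of at least 10 were shifted by -0.22. That list's median was -0.39 after plucking, with 1 of 6 at least 2-fold lower, and 0.22 in wounds.

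After plucking 8 of 96 genes were at least 2-fold higher and 14 lower, or 8.33% and 14.6%. Among all loci with a mean FPKM of at least 1 the shares were 16.5% and 14.7%, so the set did not exceed them at that floor. Among loci with a mean FPKM of at least 10 the shares were 10.6% and 9.96%, and the set was not counted there. Ftl1, the ferritin light chain, stood at 339 and 39.9 FPKM, while Fth1, its heavy chain partner, stood at 226 and 272. Ftl1 and Fth1 are each listed at 2 loci in that table. Gpx2, a glutathione peroxidase of epithelia, stood at 20.7 in WT and was listed at 0 in the JunB cKO, as was Osgin1 at 9.87 in WT. Txnrd2, the mitochondrial thioredoxin reductase, was listed at 0 in WT and 11.0 in the JunB cKO. That table joins Gpx2 to 156 kb with Churc1,Fntb and Rab15, against 3.22 kb alone in the unperturbed table, and places Txnrd2 in 131 kb with 5 other listed genes. As for Gclm, how reads were divided there was not tested. Nos2, Gstp1 and Gsta2 were likewise listed at 0 in 1 genotype. Atf3, a stress-induced transcription factor, stood at 4.25 and 33.2 FPKM.

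In wounds 1 of 96 genes was at least 2-fold higher and 2 lower, or 1.04% and 2.08%, against 4.99% and 4.38% of all loci. Gsta3, a glutathione transferase, stood at 5.42 and 13.0 FPKM. Txnrd2 stood at 8.09 and 2.87 and Gsta2 at 2.30 and 0.640. The medians over the lists' genes were -0.19 unperturbed, -0.18 after plucking and -0.03 in wounds.

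**Figure D4:**
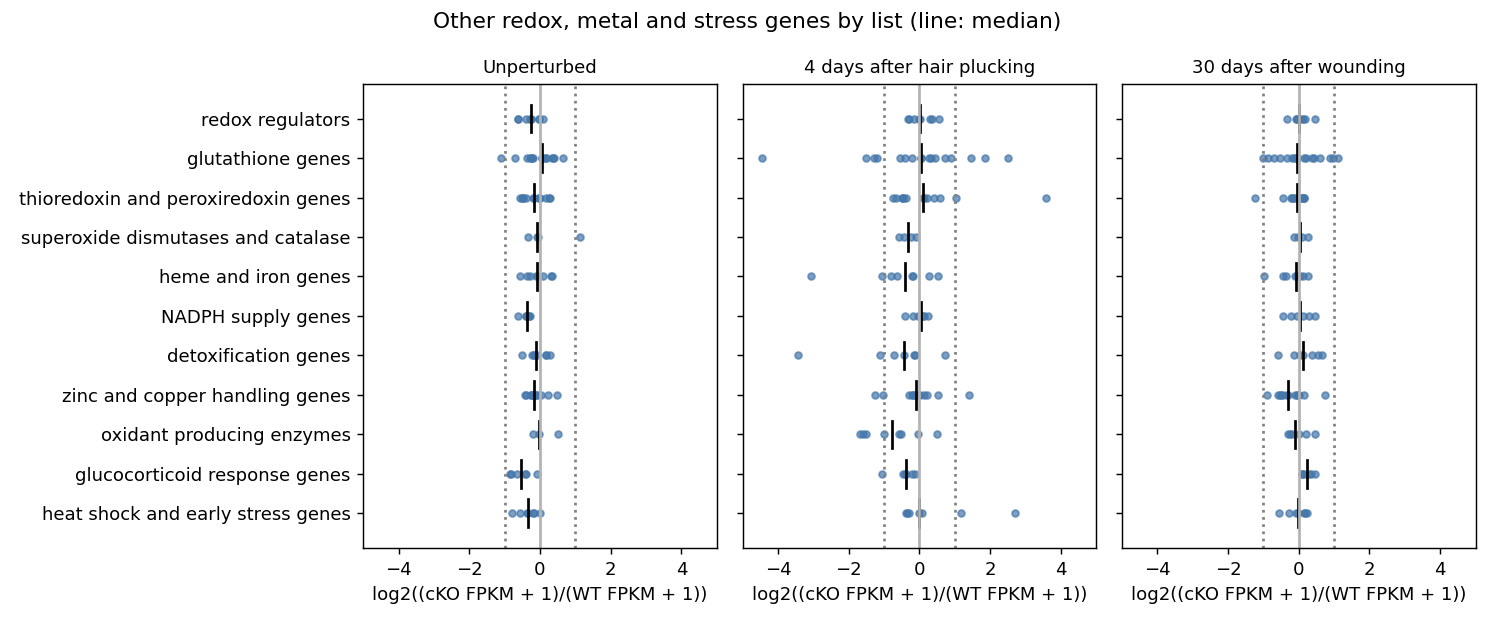
Ratio of each listed gene with a mean FPKM of at least 1, by list, with a vertical bar at the list's median and dotted lines at 2-fold. Most points lie between the dotted lines in the unperturbed and wound panels, and the plucked panel has 8 points to the right and 14 to the left. Those are 8.33% and 14.6% of its points, against 16.5% and 14.7% of all loci with a mean FPKM of at least 1.

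Among the most abundant genes of the lists, Abcc1, an exporter of glutathione conjugates that led the detoxification genes after plucking, stood at 79.6 and 36.3 FPKM there, a ratio of -1.11. Gpx1, Cat and Xdh stayed within 2-fold in all 3 tables. Gpx1, the cytosolic glutathione peroxidase, stood at 161 and 170 FPKM unperturbed, 249 and 256 after plucking, and 213 and 287 in wounds. Cat, catalase, stood at 77.5 and 72.9, then 166 and 123, then 148 and 159. Xdh, xanthine dehydrogenase, led the oxidant producing enzymes in each table, at 9.76 and 9.51, then 23.9 and 23.3, then 36.8 and 36.8.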

How the data were processed

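RNA-seq was made from 8 libraries in 6 groups. Reads were mapped to GRCm38 with TopHat or HISAT2, and the authors deposited Cufflinks and Cuffdiff tables of FPKM values, 1 per genotype and condition. Their fold change and p-value columns were not used. The condition of the plucked and wound tables was read from the tables' names, and their columns say only control and mutant. From the FPKM values, log2 ratios with a pseudocount of 1 were computed (Python 3.11.15, pandas 2.3.3, scipy 1.17.1), with a 2-fold limit and a background of loci with a mean FPKM of at least 1. Reads behind a value were estimated from whole-read steps in receptor genes of 880 to 1100 bases, with an offset of 201 bases for effective length and the principal transcript of GENCODE M21, so they are approximate, most of all for the short Mt genes. Values were whole within 0.15 reads at 100% of unperturbed loci and 67.7% at the lowest, in the JunB cKO wounds, where libraries are combined. The calculations were tested on simulated data. Members and lists were chosen with earlier results of these data known. Named genes were the members, Junb, Keap1, Mt3, Mtf1 and Slc30a1, and per comparison up to 4 listed genes past 2-fold in each direction, ranked by ratio, and the most abundant of each list, of which a part is printed. Where a symbol has several loci, the most abundant was used.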

Additional observations from a re-analysis of the deposited data

Results flagged for a closer look

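For 3 members the genotypes differed by at least 2-fold in one condition and, beyond counting error, in the opposite direction in another. Srxn1 had a ratio of 2.02 after plucking, -0.36 in unperturbed samples and -0.89 in wounds. Once the shift of all loci was taken off, the unperturbed value of Srxn1 was -0.14 with a counting interval of -0.48 to 0.11, so its direction there depends on the scaling, whereas the wound value was -0.86. Mt2 had a ratio of 1.19 after plucking and -0.24 in unperturbed samples, where it lay at -0.01 with an interval of -0.16 to 0.13 after the same step, and the same limit holds. Hmox1 had a ratio of 1.22 in unperturbed samples and -0.18 in wounds. With 1 value per genotype, the differences between conditions were not tested.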

How the results depend on the processing

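Centring on the median of loci with a mean FPKM of at least 10 moved the unperturbed median of the members to 0.10 and left 0 members at least 2-fold lower, since Mt4 then stood at -0.93. Without Gclm, an alternative chosen after seeing the data, 1 member was at least 2-fold lower after plucking. With a 1.5-fold limit 1 member, Srxn1, was lower in wounds. The other 44 alternatives to the medians and counts stayed within the set tolerance, including subtraction of the receptor gene median, also chosen after seeing the data. The share of all loci at least 2-fold higher in unperturbed samples was 1.46% at a mean FPKM of at least 10 and 9.31% with no filter. No paired analysis was possible because each table holds 1 value per genotype, and for the same reason no wound library could be left out. The estimated depth of the unperturbed JunB cKO limits its precision, with about 39 reads behind Nqo1.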
